A study of Homo sapiens with 20 samples.

Results

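Ribosome biogenesis and nucleolar genes were followed in 2 alveolar rhabdomyosarcoma cell lines, Rh30 and Rh41, both of which carry the PAX3-FOXO1 fusion gene. The set was a named list of 45 genes. A gene was taken where a probe set of the array carried its symbol, and by the highest mean signal where it had several, which no member did. This gave 38 of the 45 genes, among 17687 genes tested in all, and DDX18, DKC1, NOP56, WDR43, BOP1, PPAN and GNL3 were not analysed here. By role, the 38 were 2 subunits of RNA polymerase I, 3 proteins of box C/D small nucleolar ribonucleoproteins (snoRNPs) or their chaperone, 2 proteins of box H/ACA snoRNPs, 14 small subunit factors, 12 large subunit factors and 5 multifunctional nucleolar proteins.

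Total RNA was measured on 20 Clariom S arrays in 8 groups. Rh30 cells carried a short hairpin RNA against KDM4B (shKDM4B, 2 arrays) or a control hairpin (shControl, 2 arrays), or a small interfering RNA against KDM4C (siKDM4C, 2 arrays) or a control one (siControl, 2 arrays), all for 72 h. Rh30 and Rh41 cells were treated for 48 h with 200 nM QC6352, a small molecule inhibitor of KDM4 histone demethylases, or with its vehicle DMSO (3 arrays per group and line). Each group is 1 established cell line in culture, and no group with a restored KDM4B or KDM4C was analysed here.

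Ribosomes are built in the nucleolus. RNA polymerase I transcribes the precursor of ribosomal RNA there, snoRNPs modify it at chosen bases, and the small subunit processome and the large subunit assembly factors fold and cut it while ribosomal proteins join. The genes of this machinery are widely transcribed together in growing cells, and MYC is a known activator of many of them.

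The arrays and their labels were examined before the comparisons. The median signal of the genes' probe sets was lower in the 4 siRNA arrays and higher in the 6 Rh41 arrays than in the other 10, and the medians of all probe sets ran from 6.72 to 7.25 log2. All 5 muscle lineage markers lay at 8.70 log2 or above in every array of both lines. Among the Rh30 arrays, those titled QC6352 had MYOG, the gene of myogenin, at 9.03 to 9.34 log2, against 11.72 to 11.82 log2 for those titled DMSO (-2.63, limma adjusted p = 3.94e-13), and its part in the members' values was not tested. The 23 background probe sets of an array had medians of 3.64 to 4.01 log2 and highest values of 7.09 to 8.05 log2. Of the 12 markers of other cell types, PTPRC (3.41 to 4.22 log2), EPCAM (3.60 to 4.43), LUM (3.41 to 4.16) and CDH1 (3.26 to 4.73) lay near these medians. The others lay higher in at least 1 line, among them CD79A (6.81 to 7.54), KRT5 (5.72 to 6.84), VWF (6.19 to 7.24), PECAM1 (up to 7.72 in Rh30) and PDGFRA (7.73 to 8.08 in Rh41, against 3.87 to 5.29 in Rh30), and their part in the results was not tested. Of the members 18 lay at or under 8.05 log2, the highest background value, in at least 1 array, and POLR1B, RRP9, RRP12 and NOP2 did in all 20. For 10 Rh30 arrays the title and the sample name, both given by the submitters, name different groups. One of them, siKDM4C replicate 2, is also titled as a hairpin array. By sample name the arrays with MYOG at 9.03 to 9.34 log2 would be siControl replicate 2 and both siKDM4C arrays. The siControl replicate 1 of the sample names has MYOG at 11.82 log2. Groups follow the titles here, except that siKDM4C replicate 2 was placed by its source name. The counts by sample name are given in each comparison. The 4 hairpin arrays and the 6 Rh41 arrays carry no conflict.

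**Figure D1:**
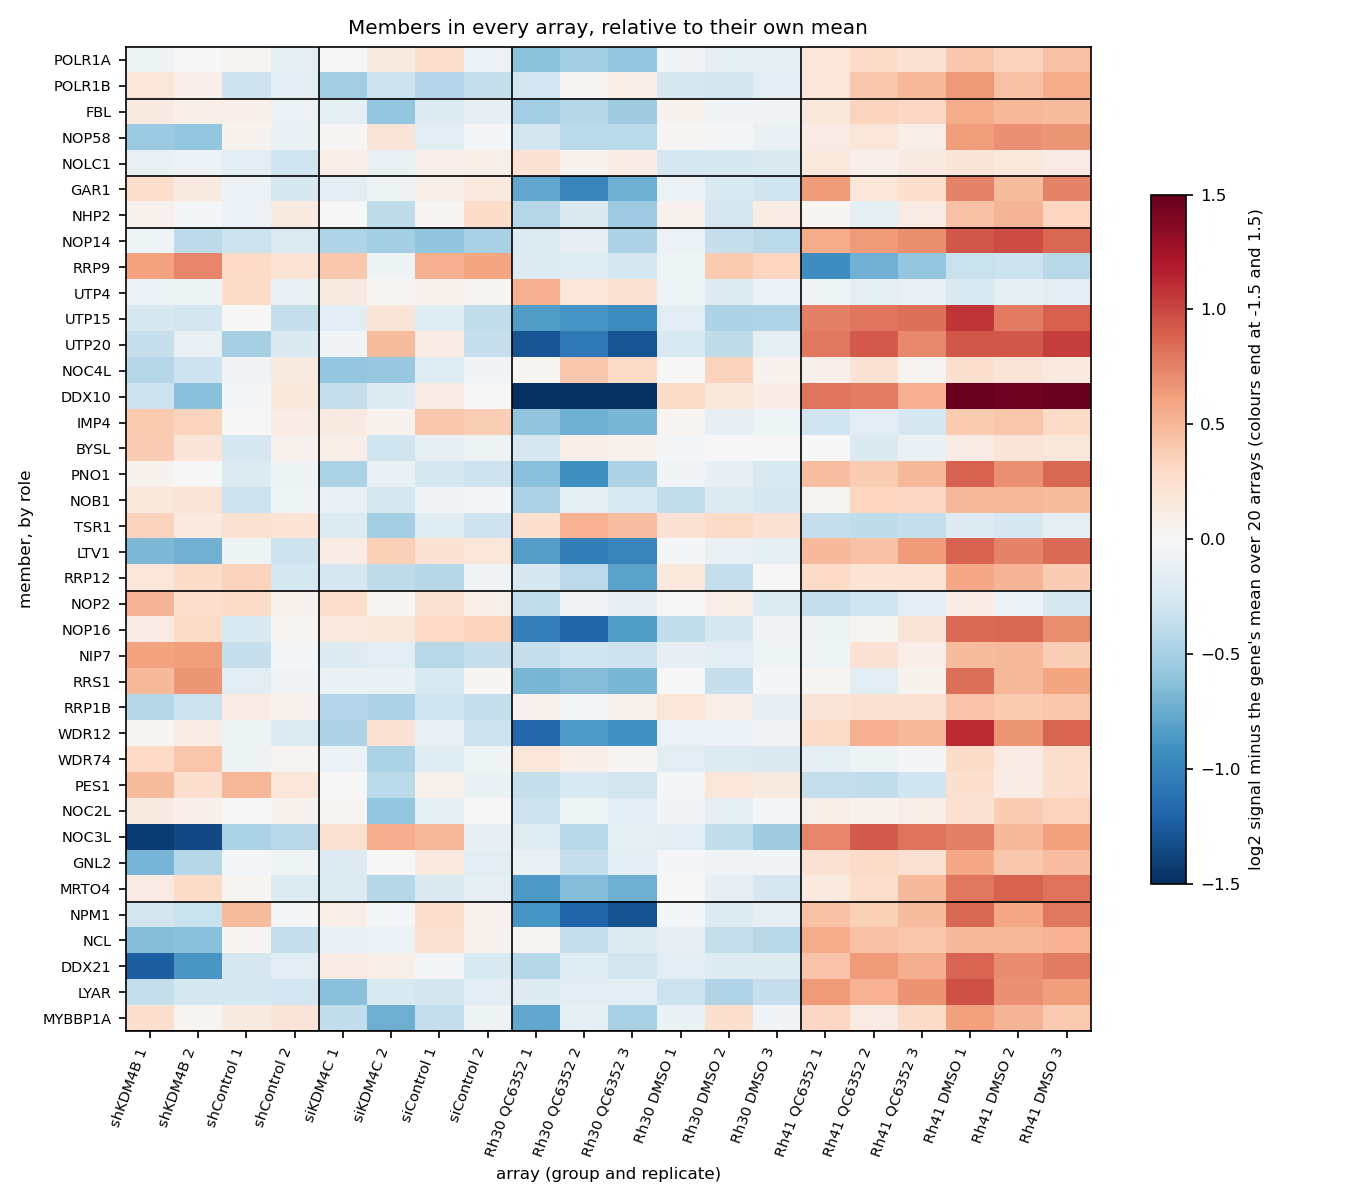
Signal of the 38 members in each of the 20 arrays, as log2 signal minus that gene's mean over all arrays (colour scale), with members grouped by role down the page and arrays grouped by comparison across it. The 3 arrays titled QC6352 in Rh30 are the bluest block over small subunit factors, with DDX10 beyond the scale, and the 3 Rh41 DMSO arrays are the reddest over most members.

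Under QC6352 in Rh41, 14 of the 38 ribosome biogenesis genes fell, 0 rose and 24 did not pass an adjusted p of 0.05 (limma, adjusted over all genes), while 8.80% of all genes tested fell and 10.9% rose. The median log2 fold change was -0.27 over the members and 0.02 over all genes, and 36 of the 38 fold changes were negative. Large subunit factors had 7 of 12 members lower, small subunit factors 5 of 14, and each snoRNP group 1. Neither measured subunit of RNA polymerase I and none of the 5 multifunctional proteins passed. In bulk RNA, fewer cells of a type and less RNA per cell cannot be told apart.

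The helicase gene DDX10, whose product acts in the small subunit processome, stood at 8.14, 8.11 and 7.87 log2 under QC6352 in Rh41, against 8.97, 8.80 and 8.86 log2 under DMSO. All 3 drug arrays lay below all 3 DMSO arrays, a log2 fold change of -0.84 (SE 0.163, limma adjusted p = 0.00105), or 1.79-fold lower. IMP4, a protein of the snoRNP that guides cleavage of the small subunit rRNA precursor, read 8.42, 8.57 and 8.47 log2 under QC6352 and 9.12, 9.14 and 9.01 log2 under DMSO. Its groups were also apart (-0.60, SE 0.0848, adjusted p = 4.5e-05).

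Among large subunit factors, NOP16, which binds early pre-ribosomes, was at 8.35, 8.48 and 8.62 log2 under QC6352 in Rh41, against 9.28, 9.29 and 9.13 log2 under DMSO. This was the second largest change of the set (-0.75, SE 0.115, limma adjusted p = 0.000109), with no overlap. RRS1, which brings the ribonucleoprotein of the small rRNA of the large subunit into the particle, read 8.15, 7.93 and 8.16 log2 under QC6352, against 8.93, 8.61 and 8.70 log2 under DMSO. It fell by 0.66 log2 (SE 0.115, adjusted p = 0.000373), and QC6352 replicate 2 was its lowest array. PES1 and WDR12 belong to one complex that processes the large subunit rRNA. PES1 read 8.56, 8.55 and 8.62 log2 under QC6352, against 9.16, 9.03 and 9.18 log2 under DMSO (-0.55, SE 0.115, adjusted p = 0.00203). WDR12 read 8.05, 8.29 and 8.25 log2 under QC6352, against 8.88, 8.42 and 8.63 log2 under DMSO (-0.45, SE 0.149, adjusted p = 0.0412). Both were without overlap, and the DMSO arrays of WDR12 were spread more widely than those of PES1.

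MRTO4, a large subunit factor related to the ribosomal stalk protein, was at 7.95, 8.07 and 8.29 log2 under QC6352 in Rh41, against 8.59, 8.69 and 8.62 log2 under DMSO (-0.53, SE 0.109, limma adjusted p = 0.00161). The box C/D core protein gene NOP58 read 10.30, 10.36 and 10.26 log2 under QC6352, against 10.81, 10.87 and 10.84 log2 under DMSO (-0.53, SE 0.0859, adjusted p = 0.000194). Neither gene had overlapping groups, and those of NOP58 were apart by several times their width. The other 6 members that fell were NHP2, RRP9, PNO1, NIP7, WDR74 and LTV1, with log2 fold changes of -0.42 to -0.31. The 24 members that did not pass ran from -0.32 for NPM1 to 0.21 for NOC3L.

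Of the 14 falls in Rh41, 7 (DDX10, IMP4, MRTO4, NOP16, NOP58, PES1 and RRS1) passed under every alternative with groups by title, single arrays left out included. LTV1, NHP2, NIP7, PNO1, RRP9, WDR12 and WDR74 did not. The count was 8 without DMSO replicate 1, 9 without DMSO replicate 3, and 8 without QC6352 replicate 1 or without QC6352 replicate 2. Over all genes the falls in these cases were 1191, 1306, 1169 and 1299, against 1556 with all arrays. Without DMSO replicate 2 NHP2 and RRP9 lost their calls, and without QC6352 replicate 3 PNO1, WDR12 and WDR74 did. The count was 15 without the 10 arrays whose labels conflict, where all genes were not counted, so it cannot be set against their share. It was 6, beside 679 of all genes, with all arrays grouped by sample name. There only the estimate of the spread changes for this comparison.

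Under QC6352 in Rh30, by title, 19 members fell and 3 rose, while 16.5% of all genes tested fell and 19.9% rose. The median log2 fold change was -0.35 over the members and 0.05 over all genes. Small subunit factors had 7 of 14 members lower and 1 higher, and large subunit factors 5 of 12 lower and 1 higher. Both box H/ACA proteins, 2 of 3 box C/D proteins, 2 of 5 multifunctional proteins and 1 of 2 polymerase subunits were lower. With groups by sample name 0 members fell and 0 rose. Over all genes 8 then fell and 81 rose, beside 2910 and 3517 by title. Every member call in this comparison thus rests on the titles (limma, adjusted over all genes).

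DDX10 had the most negative fold change of the set. Arrays titled QC6352 read 4.82, 5.41 and 5.73 log2, against 7.61, 7.51 and 7.44 log2 in those titled DMSO, and all 11 other Rh30 arrays read 6.71 to 7.61 log2. The 3 arrays titled QC6352 were thus the lowest of the 14 Rh30 arrays for this gene, and they also differed most among themselves. Its log2 fold change was -2.20 (SE 0.163, limma adjusted p = 3.72e-09). The signals of both groups lay above the background medians and below the highest background probe sets of their arrays. The size of this change is thus less certain than its direction.

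NPM1, the gene of nucleophosmin, an abundant nucleolar chaperone, stood at 10.13, 9.81 and 9.71 log2 under QC6352, against 10.99, 10.81 and 10.88 log2 under DMSO. The drug arrays were again below every other Rh30 array, whose values ran from 10.69 to 11.49 log2, and the fold change was -1.01 (SE 0.129, limma adjusted p = 4.19e-06). NPM1 has processed pseudogenes, and whether its probes also read their transcripts was not tested.

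UTP20, a very large scaffold protein of the small subunit processome, read 6.31, 6.53 and 6.31 log2 under QC6352 in Rh30, against 7.38, 7.22 and 7.47 log2 under DMSO (-0.97, SE 0.141, limma adjusted p = 1.79e-05). LTV1, needed for late small subunit assembly and export, read 8.40, 8.19 and 8.24 log2 under QC6352, against 9.20, 9.12 and 9.08 log2 under DMSO (-0.86, SE 0.0982, adjusted p = 1.03e-06). In both genes the groups lay apart by several times their width. WDR12 read 6.58, 6.90 and 6.85 log2 under QC6352, against 7.67, 7.66 and 7.71 log2 under DMSO (-0.91, SE 0.149, adjusted p = 7.31e-05). NOP16 read 7.40, 7.23 and 7.60 log2 under QC6352, against 8.06, 8.20 and 8.39 log2 under DMSO (-0.80, SE 0.115, adjusted p = 1.46e-05). Both are large subunit factors that also fell in Rh41, and neither had overlapping groups in Rh30. The values of UTP20 and WDR12, and those of NOP16 under QC6352, lay below the highest background probe sets of these Rh30 arrays (7.69 to 7.98 log2). The size of their changes is thus less certain.

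GAR1, a core protein of the box H/ACA particles that convert uridine to pseudouridine, read 7.75, 7.54 and 7.79 log2 under QC6352 in Rh30, against 8.44, 8.29 and 8.22 log2 under DMSO (-0.63, SE 0.12, limma adjusted p = 0.000333). MRTO4 read 6.94, 7.16 and 7.07 log2 under QC6352, against 7.79, 7.68 and 7.56 log2 under DMSO (-0.62, SE 0.109, adjusted p = 0.000132). Neither gene had overlapping groups. MRTO4 lay below the highest background probe sets of its arrays in both groups, and GAR1 did in QC6352 replicates 2 and 3. The other 11 falls ran from -0.62 for IMP4 to -0.33 for NOP58, and included the rRNA methyltransferase FBL (-0.48) and the largest RNA polymerase I subunit POLR1A (-0.46). POLR1A lay at 8.95, 9.05 and 8.98 log2 under QC6352, against 9.52, 9.42 and 9.41 log2 under DMSO, while the fold change of POLR1B, the second largest subunit, was 0.17 and did not pass. NHP2 was the one called member of this comparison whose groups overlapped.

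The 3 rises in Rh30 were in UTP4, NOLC1 and WDR74. UTP4, a processome protein that also acts in pre-rRNA transcription, was at 11.04, 10.68 and 10.72 log2 under QC6352, against 10.44, 10.31 and 10.42 log2 under DMSO (0.43, SE 0.107, limma adjusted p = 0.00344). NOLC1, a chaperone of snoRNPs, was at 10.72, 10.56 and 10.62 log2 under QC6352, against 10.26, 10.27 and 10.29 log2 under DMSO (0.36, SE 0.0841, adjusted p = 0.00185). Both were without overlap, and QC6352 replicate 1 was the highest array for each. WDR74, which works with an ATPase of large subunit maturation, was at 9.63, 9.56 and 9.49 log2 under QC6352, against 9.28, 9.25 and 9.23 log2 under DMSO (0.30, SE 0.0996, adjusted p = 0.0217).

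Of the 22 calls in Rh30, 17 passed under every alternative with groups by title. MYBBP1A lost its call without DMSO replicate 2 or without QC6352 replicate 1, PES1 without DMSO replicate 2, RRP9 without DMSO replicate 2 or 3, WDR74 without DMSO replicate 2 or 3 or QC6352 replicate 1, and NHP2 without DMSO replicate 1 or 3 or QC6352 replicate 1 or 3.

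**Figure D2:**
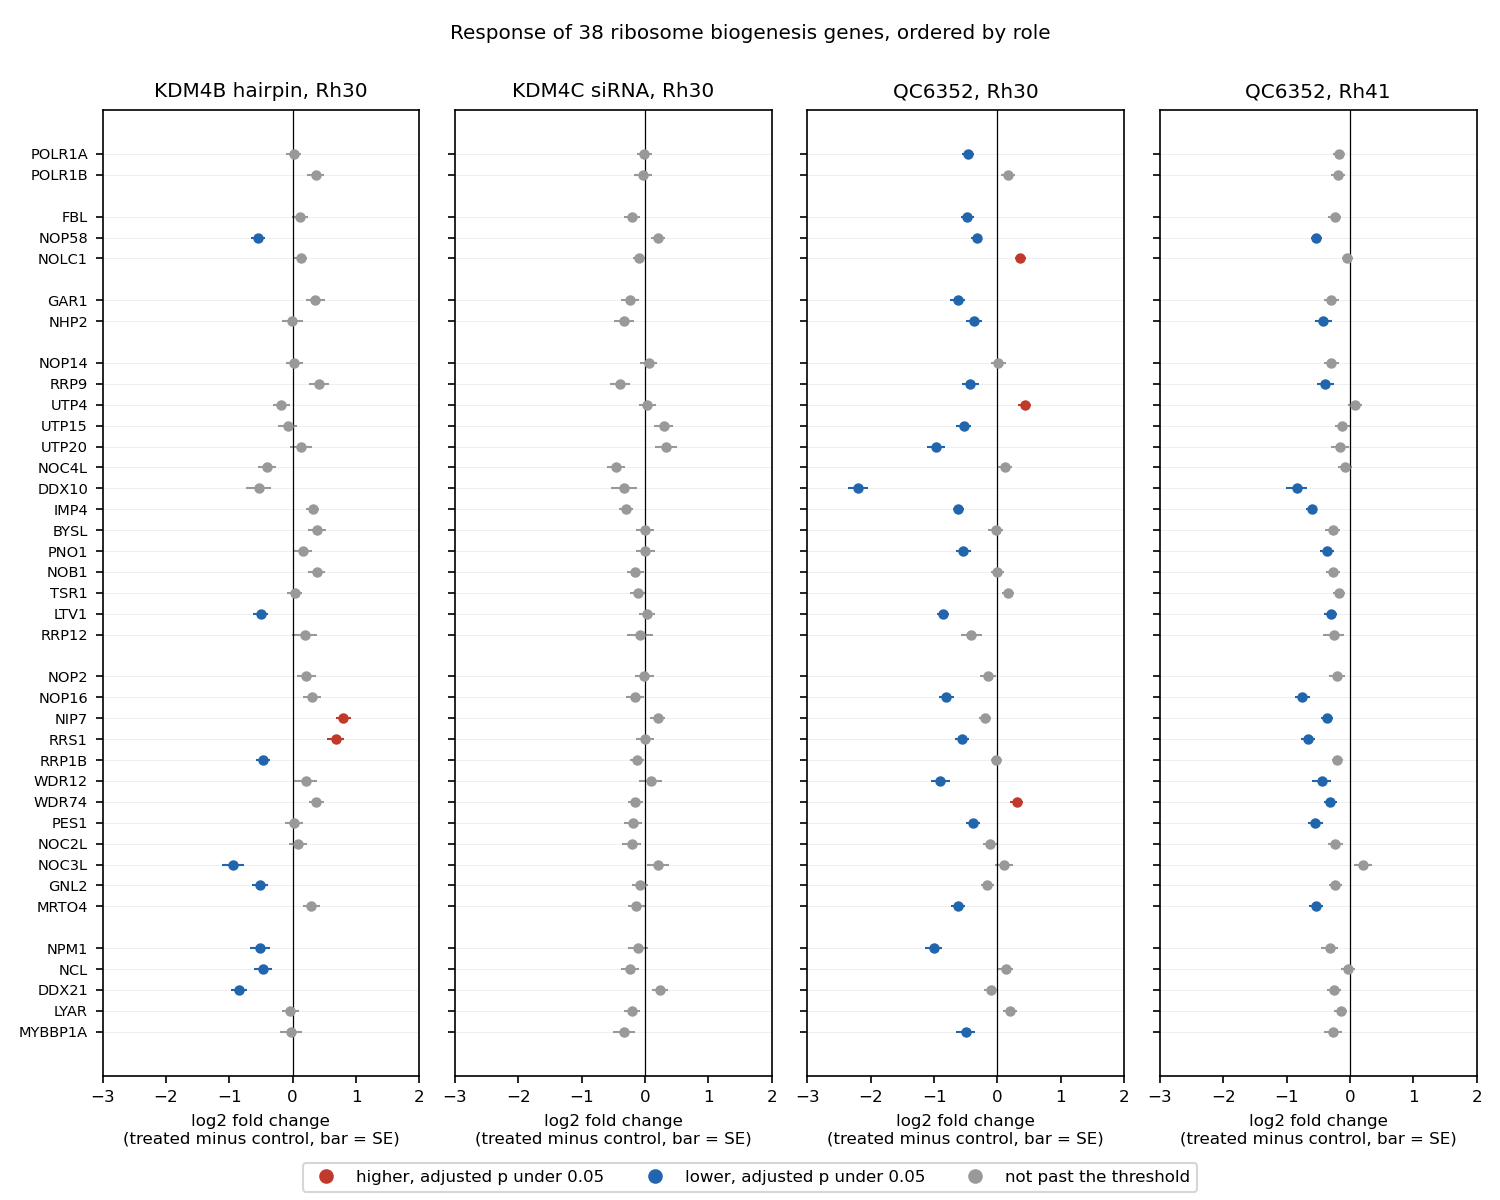
Log2 fold change (treated minus control, bars show the SE of the limma fit) of each of the 38 members in the 4 treatment comparisons, with members grouped by role. Blue and red points passed an adjusted p of 0.05, with 19 lower and 3 higher for QC6352 in Rh30, 14 lower for QC6352 in Rh41, 8 lower and 2 higher for the KDM4B hairpin and 0 for the KDM4C siRNA.

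Both lines shared falls. In all, 12 of the 38 members fell in both, where 19 fell in Rh30 and 14 in Rh41. Of all genes tested 5.47% fell in both, where 16.5% fell in Rh30 and 8.80% in Rh41. The 12 members were NOP58, NHP2, RRP9, DDX10, IMP4, PNO1, LTV1, NOP16, RRS1, WDR12, PES1 and MRTO4. A further 7 fell in Rh30 only past the threshold, 1 (NIP7) in Rh41 only, and WDR74 was higher in Rh30 and lower in Rh41. The fold changes of the 2 lines, which share no array, had a Pearson r of 0.67 and a Spearman rho of 0.62 over the 38 members, and 0.53 and 0.43 over all 17687 genes. Members are not independent replicates, and these values only describe the 12 arrays.

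The difference between the lines was tested as Rh41 minus Rh30. It was positive past the threshold for 4 members and negative for 2, while 10.5% of all genes tested were positive and 9.45% negative. DDX10 (1.36, SE 0.231, limma adjusted p = 0.000303), UTP20 (0.82, SE 0.2, adjusted p = 0.00633), NPM1 (0.69, SE 0.183, adjusted p = 0.0114) and LTV1 (0.55, SE 0.139, adjusted p = 0.00779) had the more negative response in Rh30. UTP20 read 8.40, 8.53 and 8.32 log2 under QC6352 in Rh41, against 8.53, 8.54 and 8.64 log2 under DMSO, groups that nearly touch. NPM1 read 11.45, 11.38 and 11.49 log2 under QC6352 in Rh41, against 11.87, 11.60 and 11.81 log2 under DMSO (fold change -0.32, not past the threshold).

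WDR74 (-0.61, SE 0.141, limma adjusted p = 0.00418) and NOLC1 (-0.40, SE 0.119, adjusted p = 0.0215) had the opposite sign of difference. WDR74 was at 9.30, 9.38 and 9.42 log2 under QC6352 in Rh41, against 9.73, 9.57 and 9.72 log2 under DMSO. Its drug arrays thus lay below DMSO in Rh41 and above DMSO in Rh30. NOLC1 was at 10.66, 10.58 and 10.64 log2 under QC6352 in Rh41, against 10.70, 10.67 and 10.64 log2 under DMSO, which were not told apart. NOLC1 lost this call without Rh30 QC6352 replicate 1, without Rh41 DMSO replicate 1 and without Rh41 QC6352 replicate 2, and the count of 2 then became 1 in the last 2 of these cases. By sample name 0 members were positive and 1 negative, beside 207 and 555 of all genes.

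**Figure D3:**
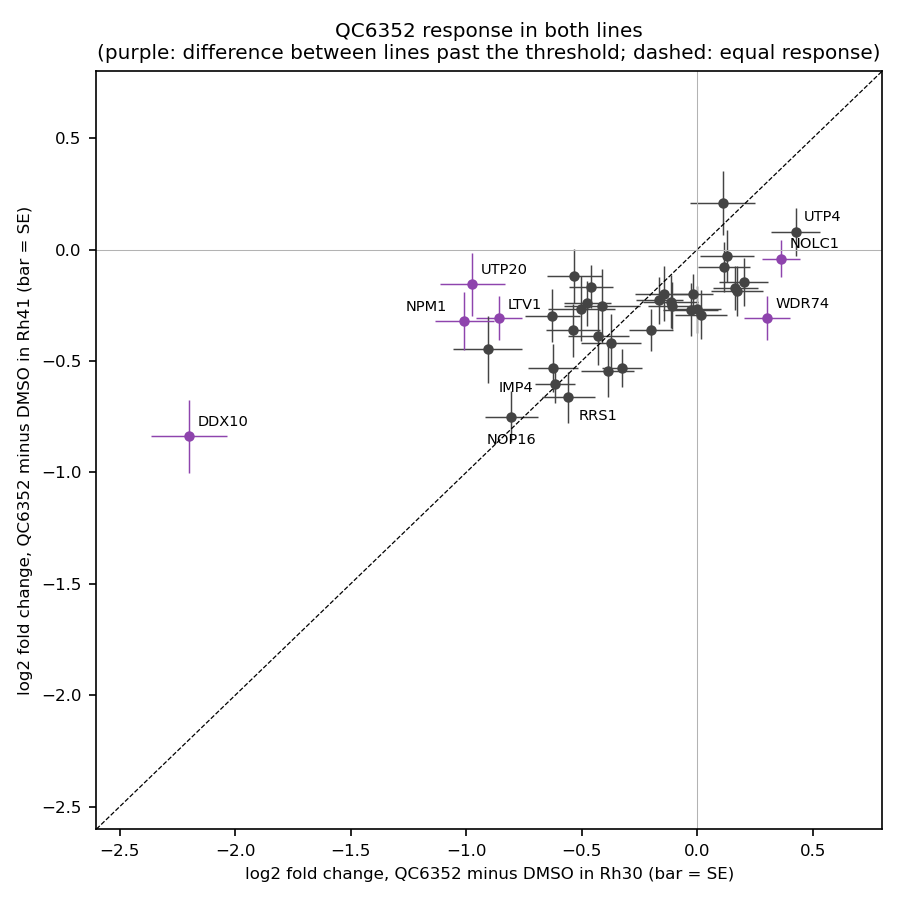
Log2 fold change of QC6352 minus DMSO in Rh41 (vertical axis) against that in Rh30 (horizontal axis) for the 38 members, with the SE of each as bars. The 6 purple points are the members whose responses differed between the lines past an adjusted p of 0.05, with DDX10 farthest from the dashed line of equal response and NOP16, IMP4 and RRS1 close to it.

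Since 12 members fell in both lines, the promoters of the set were read from RefSeq (build GRCh38.p14), as the 250 bases before to the 50 bases after each gene's start. A promoter was listed for 38 of the 45 genes. The E-box CACGTG, which reads the same on both strands and is the sequence bound by MYC and related factors, occurred in 16 of these 38 windows (42.1%) and in 1238 of 14250 windows of genes tested (8.69%). Of the 10 members that fell in both lines and had a window, 6 (60%) held it, and so did 9 of 23 other measured members. The nearest E-box began between 16 bases before the start and 35 bases after it (-16 to 35). The ETS core CCGGAAG, searched on both strands as CCGGAAG and CTTCCGG, occurred in 13 of the 38 windows (34.2%) and in 2035 of 14250 (14.3%). A match describes these letters only, since binding was not measured.

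The 4 windows below are shown for members whose response to QC6352 is described here, with and without these motifs, on the plus strand and with the motifs in capitals. IMP4 holds an E-box 203 bases before its start and another beginning at 15 after it (-203 and 15, chr2:130342647-130342946). PNO1, an RNA-binding protein of the small subunit that fell in both lines, holds one at 9 after its start (chr2:68157638-68157937). NIP7, a large subunit factor, holds an ETS core at -195 and no E-box (chr16:69339522-69339821). DDX10, which had the largest fall, holds neither (chr11:108664819-108665118).
IMP4: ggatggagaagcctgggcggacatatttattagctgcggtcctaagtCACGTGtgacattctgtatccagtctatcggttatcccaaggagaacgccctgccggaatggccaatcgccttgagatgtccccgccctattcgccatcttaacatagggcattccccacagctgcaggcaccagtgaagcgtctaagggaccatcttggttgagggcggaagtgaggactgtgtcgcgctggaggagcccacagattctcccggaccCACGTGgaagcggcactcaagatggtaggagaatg
PNO1: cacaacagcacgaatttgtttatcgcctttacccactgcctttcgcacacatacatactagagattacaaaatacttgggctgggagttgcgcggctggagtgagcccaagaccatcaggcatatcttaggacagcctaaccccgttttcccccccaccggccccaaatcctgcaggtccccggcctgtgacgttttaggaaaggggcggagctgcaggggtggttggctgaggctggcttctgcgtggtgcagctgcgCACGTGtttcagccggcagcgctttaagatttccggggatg
NIP7: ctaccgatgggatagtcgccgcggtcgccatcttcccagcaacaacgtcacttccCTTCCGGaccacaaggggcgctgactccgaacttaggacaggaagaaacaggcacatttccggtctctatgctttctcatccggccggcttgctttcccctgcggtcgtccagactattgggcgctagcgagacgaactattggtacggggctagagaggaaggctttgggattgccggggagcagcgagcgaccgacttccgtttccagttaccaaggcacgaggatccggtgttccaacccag
DDX10: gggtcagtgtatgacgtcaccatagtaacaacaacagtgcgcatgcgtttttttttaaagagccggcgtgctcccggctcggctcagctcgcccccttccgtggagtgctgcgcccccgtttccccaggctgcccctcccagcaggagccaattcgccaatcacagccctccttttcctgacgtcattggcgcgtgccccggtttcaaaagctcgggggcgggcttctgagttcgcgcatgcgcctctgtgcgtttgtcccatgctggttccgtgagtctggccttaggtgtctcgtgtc

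The levels of MYC and MYCN, transcription factors of the E-box, were read beside these genes. MYC was at 9.17, 9.15 and 9.29 log2 under QC6352 in Rh41, against 9.96, 9.92 and 9.73 log2 under DMSO (-0.66, SE 0.102, limma adjusted p = 0.000114). MYC was at 9.02, 9.15 and 8.84 log2 under QC6352 in Rh30, against 9.42, 9.37 and 9.51 log2 under DMSO (-0.43, SE 0.102, adjusted p = 0.00223). It was lower in every drug array than in every DMSO array of its line. MYCN fell as well, by 0.49 log2 in Rh41 (SE 0.102, adjusted p = 0.00197) and by 0.69 log2 in Rh30 (SE 0.102, adjusted p = 2.25e-05). Their part in the members' responses was not tested.

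The hairpin comparison asked what a hairpin against KDM4B did in Rh30. KDM4B was at 6.01 and 6.15 log2 in shKDM4B arrays, against 6.74 and 7.30 log2 in shControl arrays (-0.94, SE 0.233, limma adjusted p = 0.0120). These values lay below the highest background probe sets of their arrays. Of the 38 members 8 fell and 2 rose, while 6.31% of all genes tested fell and 5.26% rose. The median log2 fold change was 0.06 over the members and 0.03 over all genes, and 23 of the 38 fold changes were positive. Multifunctional nucleolar proteins had 3 of 5 members lower and large subunit factors 3 of 12 lower and 2 higher, with 1 small subunit factor and 1 box C/D protein lower. MYC rose here, at 10.17 and 10.17 log2 in shKDM4B arrays, against 9.52 and 9.58 log2 in shControl arrays (0.62, SE 0.125, adjusted p = 0.00268).

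NOC3L, a partner of early large subunit particles, was at 6.06 and 6.13 log2 in shKDM4B arrays, against 7.01 and 7.07 log2 in shControl arrays (-0.94, SE 0.174, limma adjusted p = 0.00127). DDX21, a nucleolar helicase that also acts with RNA polymerases, was at 8.56 and 8.93 log2 in shKDM4B arrays, against 9.55 and 9.64 log2 in shControl arrays (-0.85, SE 0.129, adjusted p = 0.000209). Both were apart by more than their spread, and neither passed under QC6352 in either line. NOC3L lay below the highest background probe sets of the hairpin arrays (7.67 to 8.05 log2). NOC3L read 7.30, 7.06 and 7.35 log2 under QC6352 in Rh30, against 7.32, 7.11 and 6.95 log2 under DMSO. Its groups overlapped there.

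NIP7 was higher in shKDM4B arrays, at 10.16 and 10.18 log2, against 9.21 and 9.53 log2 in shControl arrays (0.80, SE 0.117, limma adjusted p = 0.000144). RRS1 was at 8.60 and 8.77 log2 in shKDM4B arrays, against 7.95 and 8.07 log2 in shControl arrays (0.68, SE 0.141, adjusted p = 0.00324). RRS1 thus rose with the hairpin and fell with QC6352 in both lines. The remaining falls were in NOP58 (-0.55, SE 0.105, adjusted p = 0.00174), GNL2 (-0.52, SE 0.127, adjusted p = 0.0106), LTV1 (-0.51, SE 0.12, adjusted p = 0.00888), RRP1B (-0.47, SE 0.106, adjusted p = 0.00643), NPM1 (-0.52, SE 0.158, adjusted p = 0.0386) and NCL (-0.46, SE 0.142, adjusted p = 0.0413). GNL2 is a GTPase of large subunit export, RRP1B a nucleolar scaffold, and NCL, nucleolin, an abundant RNA-binding protein of the nucleolus. NPM1 was at 10.74 and 10.69 log2 in shKDM4B arrays, against 11.49 and 10.98 log2 in shControl arrays, and the shControl arrays differed by more than the gap between the groups.

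Set beside QC6352 in Rh30, 3 members (NOP58, LTV1 and NPM1) fell in both, 1 (RRS1) rose with the hairpin and fell with the drug, and 10 passed in neither. These are 7.89%, 2.63% and 26.3% of the members, beside 2.42%, 1.06% and 59.1% of all genes tested. The fold changes of these 2 comparisons, which share no array, had a Pearson r of 0.04 and a Spearman rho of -0.07 over the members, and 0.18 and 0.13 over all genes, as a description. NOP58 and LTV1 fell with the hairpin and with QC6352 in both lines. DDX10 was at 7.03 and 6.71 log2 in shKDM4B arrays, against 7.31 and 7.50 log2 in shControl arrays (-0.54, limma adjusted p = 0.0973), and did not pass.

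Only DDX21, NIP7 and NOC3L passed in the hairpin comparison under every alternative with groups by title. Calls were lost without shControl replicate 1, without shKDM4B replicate 1 and without shKDM4B replicate 2, and fewer of all genes passed there too. The members' median log2 fold change was then 0.10, 0.05 and 0.12, beside 0.03 over all genes in each case. In each of these cases the lone array of its group is assumed to vary like the other groups. LTV1, NCL and NPM1 lost their calls in all 3 of these cases, GNL2 and RRP1B without shControl replicate 1 or shKDM4B replicate 1, and RRS1 without shKDM4B replicate 2. With the 4 hairpin arrays fitted alone 2 fell and 2 rose, beside 531 and 295 of all genes. With the spread taken from groups by sample name 4 fell and 1 rose, beside 475 and 250 of all genes. With all arrays by title 1116 of all genes fell and 931 rose. Without the arrays whose labels conflict 10 members fell and 4 rose. All genes were not counted there, so these counts do not set the members apart from other genes.

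The siRNA comparison asked what an siRNA against KDM4C did in Rh30. KDM4C lay below the highest background probe sets of the siRNA arrays. It was at 6.25 and 6.32 log2 in siKDM4C arrays, against 6.48 and 6.54 log2 in siControl arrays, by title. This difference of -0.23 (SE 0.187, limma adjusted p = 0.651) did not pass, and the fold change of KDM4C with the KDM4B hairpin was -0.27 (adjusted p = 0.445), so a fall of the siRNA's target was not shown. Of the 38 members 0 fell and 0 rose past the limma threshold, with 3 at an unadjusted p under 0.05, while 0.192% of all genes tested fell and 0.266% rose. The median log2 fold change was -0.10 over the members and 0.02 over all genes. The 5 members with the smallest p were NOC4L (-0.46, SE 0.137, limma adjusted p = 0.127), IMP4 (-0.30, SE 0.104, adjusted p = 0.187), RRP9 (-0.40, SE 0.16, adjusted p = 0.262), NHP2 (-0.33, SE 0.161, adjusted p = 0.371) and UTP15 (0.29, SE 0.148, adjusted p = 0.395). NOC4L, a small subunit factor, was at 8.57 and 8.59 log2 in siKDM4C arrays, against 8.96 and 9.10 log2 in siControl arrays. Its groups did not overlap, in a comparison of 4 arrays. Without siKDM4C replicate 1 the count of falls was 3, while calls over all genes numbered 1789 (650 lower), beside 81 (34 lower) with both arrays, with the lone siKDM4C array assumed to vary like the other groups, and by sample name it was 0.

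**Figure D4:**
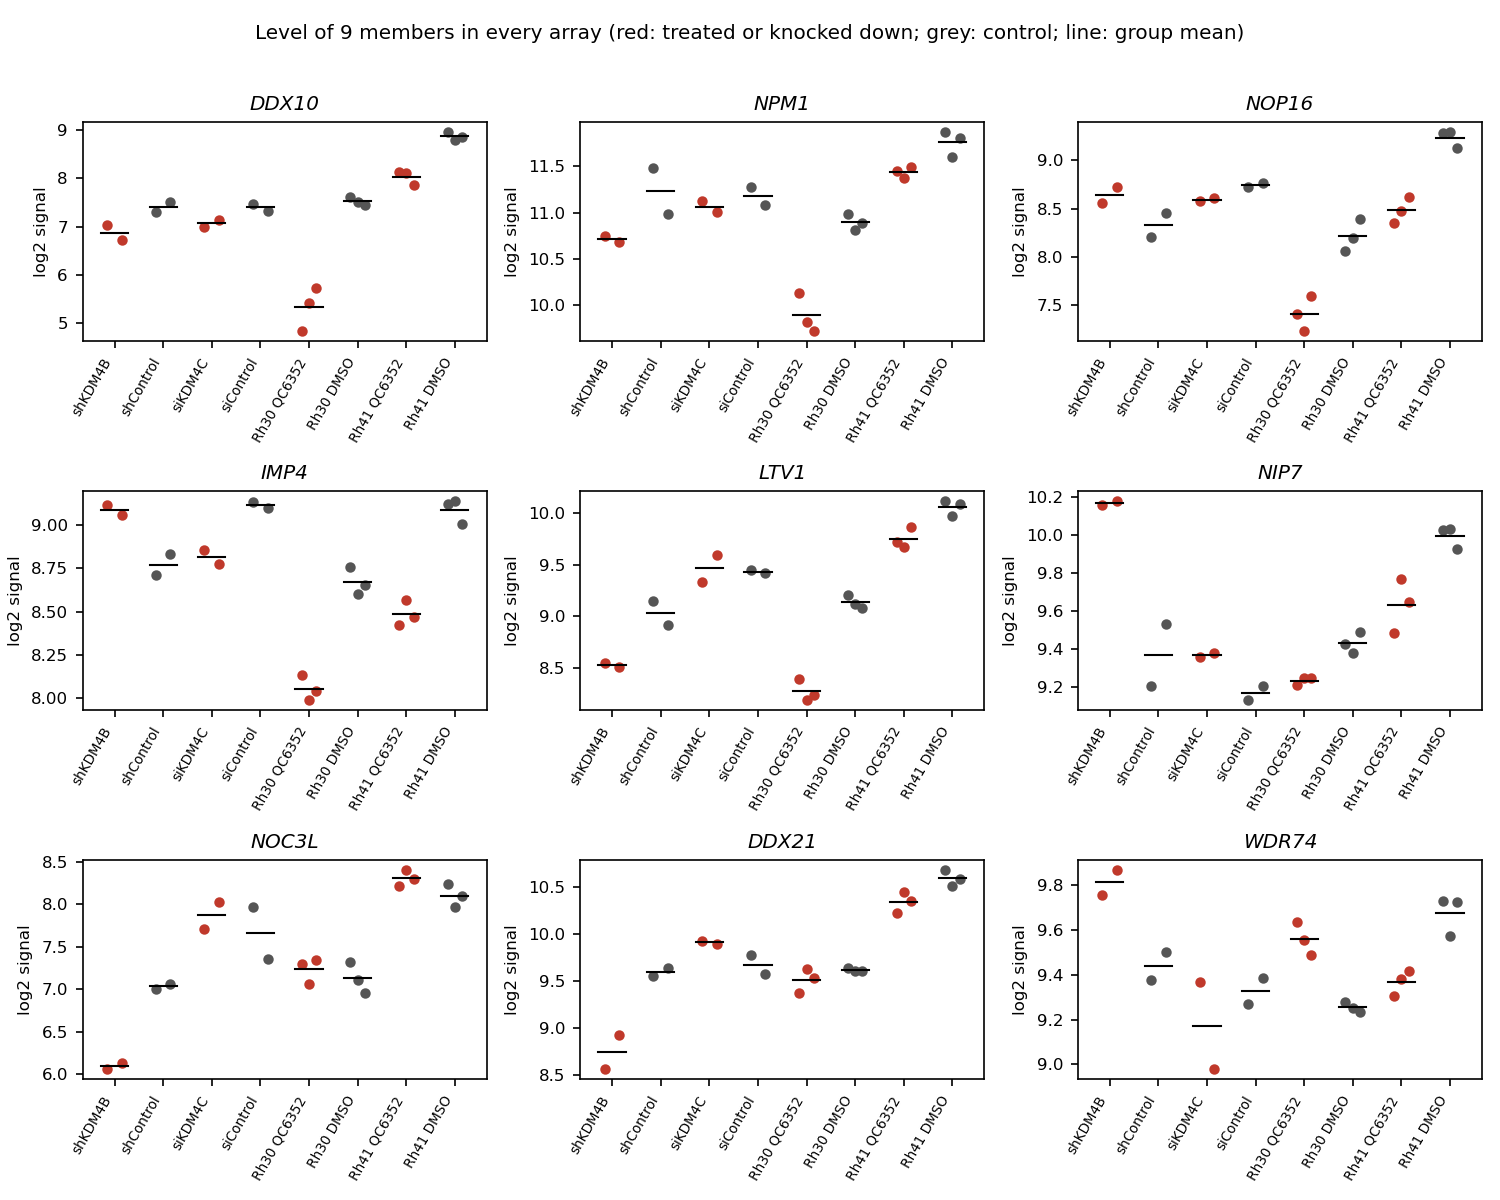
Log2 signal of 9 members in every array, with 1 dot per array, red for knockdown or QC6352 and grey for its control, and a line at each group mean. DDX10, NPM1, NOP16, IMP4 and LTV1 are lowest in Rh30 with QC6352, NOC3L and DDX21 are lowest with shKDM4B, NIP7 is highest with shKDM4B, and WDR74 lies above DMSO in Rh30 and below it in Rh41 under QC6352.

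Between the lines under DMSO, most members were higher in Rh41 than in Rh30. Of the 38 members 31 were higher and 2 lower, while 40.7% of all genes tested were higher and 16.8% lower. This split depends on the scale of the arrays. As deposited, 7202 genes were higher and 2978 lower in Rh41, with a median log2 difference of 0.19, and after centring each array on its median 4598 were higher and 5477 lower, with a median of -0.07. The members' median difference was 0.63 as deposited and 0.37 after centring, and then 23 were higher and 4 lower. Of the 33 calls 24 passed under every alternative with groups by title, and NHP2 and RRP12 lost theirs without Rh30 DMSO replicate 2. By sample name 28 were higher and 1 lower, beside 9237 and 1702 of all genes.

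DDX10 was at 8.97, 8.80 and 8.86 log2 in Rh41, against 7.61, 7.51 and 7.44 log2 in Rh30 (1.36, SE 0.163, limma adjusted p = 8.68e-07). The processome proteins UTP15 (1.27, SE 0.12, adjusted p = 3.81e-08), UTP20 (1.21, SE 0.141, adjusted p = 5.79e-07) and NOP14 (1.20, SE 0.112, adjusted p = 2.94e-08) followed. UTP15 read 8.42, 8.12 and 8.23 log2 in Rh41, against 7.18, 6.87 and 6.89 log2 in Rh30. The other large differences were in LYAR, a nucleolar regulator of cell growth (1.13, SE 0.107, adjusted p = 3.91e-08), NOP16 (1.02, SE 0.115, adjusted p = 3.74e-07), DDX21 (0.97, SE 0.105, adjusted p = 2.21e-07) and NOC3L (0.97, SE 0.142, adjusted p = 9.61e-06). RRP9, a protein of the snoRNP that guides small subunit cleavage, had the most negative difference, at 6.60, 6.61 and 6.52 log2 in Rh41, against 6.87, 7.32 and 7.25 log2 in Rh30 (-0.57, SE 0.131, adjusted p = 0.000983). TSR1, a GTPase-like protein of late small subunit assembly, was also lower (-0.43, SE 0.0986, adjusted p = 0.000976). In every Rh30 DMSO array DDX10, UTP15, UTP20, NOC3L and RRP9 lay below the highest background probe set. NOP14 and LYAR did in some of them. UTP4, BYSL, NOC4L, NOP2 and PES1 did not pass, with differences of -0.07 to 0.17. As deposited, MYC was higher in Rh41 (0.44, SE 0.102, adjusted p = 0.00124) and MYCN lower (-0.65, SE 0.102, adjusted p = 2.34e-05). These differences also depend on the scale of the arrays, where the median gene was 0.19 log2 higher in Rh41 as deposited. Whether MYC and MYCN differ after centring was not tested.

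Across the 4 treatment comparisons 28 of the 38 members were called at least once (73.7%), beside 46.9% of all genes tested. The 10 called in none were POLR1B, NOP14, NOC4L, BYSL, NOB1, TSR1, RRP12, NOP2, NOC2L and LYAR. NOB1, the nuclease of the final small subunit cleavage, was at 8.25, 8.57 and 8.49 log2 under QC6352 in Rh30, against 8.35, 8.52 and 8.45 log2 under DMSO. NOP2, an rRNA methyltransferase, was at 6.49, 6.81 and 6.74 log2 under QC6352 in Rh30, against 6.86, 6.96 and 6.65 log2 under DMSO. Both pairs of groups overlapped.

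A further 120 genes of the same pathway, listed by function, gave 113 genes tested. Under QC6352 in Rh41 25 of them fell and 5 rose, and in Rh30 35 fell and 17 rose, with 15 lower and 3 higher in both lines. These counts are 22.1% lower and 4.42% higher in Rh41, beside 8.80% and 10.9% of all genes tested, and 31% lower and 15% higher in Rh30, beside 16.5% and 19.9%. In both lines 13.3% were lower and 2.65% higher, beside 5.47% and 6.3% of all genes. Other large subunit genes in Rh30 were near the share of all genes, with 15.8% lower and 18.4% higher. Other RNA polymerase I genes rose more often than they fell in Rh30, with 41.7% higher and 8.33% lower. In Rh41 25% of them were higher and 25% lower. In Rh41 the falls were 9 of 41 other small subunit genes, 9 of 38 other large subunit genes, 3 of 12 RNA polymerase I genes, 2 of 12 RNA exosome genes and 2 of 10 snoRNP assembly genes. The largest was POLR1D, a subunit shared by RNA polymerases I and III, at -2.40 log2 in Rh41 (SE 0.14, limma adjusted p = 1.09e-09) and -2.37 log2 in Rh30 (SE 0.14, adjusted p = 1.62e-10). RUVBL1, an ATPase of snoRNP assembly, fell by 1.44 log2 in Rh41 and by 2.03 log2 in Rh30. EXOSC8, a ring subunit of the exosome, fell by 1.07 log2 in Rh41 and by 1.94 log2 in Rh30, and UTP14A, a processome protein, fell by 0.98 log2 in Rh41 and by 1.20 log2 in Rh30. The 3 that rose in both lines were TAF1B, a subunit of the RNA polymerase I selectivity factor (0.76 in Rh41, 0.69 in Rh30), NVL, an ATPase of large subunit maturation (0.91 in Rh41, 0.98 in Rh30), and EFL1, a GTPase of the last large subunit step (0.69 in Rh41, 0.67 in Rh30).

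With the KDM4B hairpin 14 of the 113 genes fell (12.4%, beside 6.31% of all genes tested) and 7 rose (6.19%, beside 5.26%). The falls were led by the processome GTPase BMS1 (-1.63, SE 0.123, limma adjusted p = 1.27e-07), the large subunit factor NSA2 (-1.20, SE 0.176, adjusted p = 0.000152) and the exosome helicase MTREX (-1.06, SE 0.142, adjusted p = 5.61e-05). BMS1 had a fold change of 0.00 in Rh41 and 0.02 in Rh30 under QC6352, neither past the threshold. With the KDM4C siRNA 1 rose, TTF1, the RNA polymerase I termination factor (0.68, SE 0.129, adjusted p = 0.0204), and 0 fell. Under DMSO 77 of the 113 were higher in Rh41 than in Rh30 and 5 lower (68.1% and 4.42%, beside 40.7% and 16.8% of all genes tested). After centring each array on its median 54 were higher and 19 lower, where all genes split 4598 to 5477.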

How the data were processed

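Total RNA was labelled from 125 ng and hybridised to 20 arrays, per the labels. The authors deposited 1 log2 signal per probe set and array. The submitters' processing notes name GCOS. How background was corrected, probes summarized or arrays normalized is not given in the sources used here. Of 24351 probe sets, 17709 carry 1 gene symbol and 6642 none, and the highest mean per gene left 17687 genes. Groups follow the sample titles, with the siKDM4C array titled as a hairpin array placed by its source name. The members, roles and pathway lists were chosen with earlier results of these data known.

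The tests used lmFit and eBayes (no trend) of limma 3.58.1, run in R 4.3.3 (8 group means, all 20 arrays, 12 residual degrees of freedom), with Benjamini-Hochberg adjustment over 17687 genes and a threshold of 0.05. Fold changes are treated minus control, with SE. P values measure the spread between arrays labelled as biological replicates. Full statistics were given to at most 8 members higher and 8 lower per comparison by size, or to the 5 smallest p where fewer than 5 passed, and at most 3 each way per other list. The fit was tested on simulated data. The number of arrays limits the precision.

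Alternatives were quantile normalization, array centring, leaving out the dimmest 40% of probe sets, eBayes with trend and robust, the compared arrays alone, a replicate block, groups by sample name, the mean of a gene's probe sets and each array left out. Leaving out the 10 arrays with conflicting labels was chosen after seeing the data. Promoters came from RefSeq, GRCh38.p14, and were read with Python 3.11.15.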

Additional observations from a re-analysis of the deposited data

Results flagged for a closer look

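The response to QC6352 differed between Rh41 and Rh30 in a test of the difference itself for 6 members (limma, adjusted over all genes). The difference, Rh41 minus Rh30, was 1.36 log2 for DDX10, 0.82 for UTP20, 0.69 for NPM1, 0.55 for LTV1, -0.40 for NOLC1 and -0.61 for WDR74. DDX10 and LTV1 fell in both lines, UTP20 and NPM1 passed in Rh30 and not in Rh41, NOLC1 rose in Rh30 and did not pass in Rh41, and WDR74 rose in Rh30 and fell in Rh41. These values use the titles of the Rh30 arrays. No group holds 4 or more arrays, so single arrays far from the rest of their group were not looked for.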

How the results depend on the processing

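Groups by sample name changed the most. QC6352 in Rh30 then had 0 members higher and 0 lower, and the difference between lines 0 positive and 1 negative. QC6352 in Rh41 had 6 lower, the hairpin 1 higher and 4 lower, and DMSO 1 lower. Over all genes QC6352 in Rh30 had 81 higher and 8 lower, and the difference 207 positive and 555 negative. QC6352 in Rh41 had 679 genes lower, the hairpin 250 higher and 475 lower, and DMSO 1702 lower. Signs turned for NOP58 (0.13), NOLC1 (-0.29), UTP4 (-0.16), UTP15 (0.091), UTP20 (0.045), DDX10 (0.16), PNO1 (0.26), WDR12 (0.31), WDR74 (-0.17), MRTO4 (0.0012) and MYBBP1A (0.069) in Rh30, for NOLC1 (0.25), UTP20 (-0.20), DDX10 (-0.999), LTV1 (-0.21) and NPM1 (-0.10) in the difference, and for TSR1 (0.044) under DMSO. No other alternative turned the sign of a called member. The hairpin had 5 members higher with quantile normalization, 6 without the dimmest probe sets and 4 with trend and robust. Over all genes 1070, 1139 (of 10749 tested) and 1160 were then higher, against 931 in the main fit. The hairpin had 4 members higher without the arrays whose labels conflict, where all genes were not counted. When fitted alone it had 2 lower, beside 531 of all genes. The KDM4C siRNA had 1 lower with trend and robust, beside 152 of all genes. DMSO had 4 lower with quantile normalization and 4 with centring, where all genes split 4646 higher to 4962 lower and 4598 to 5477, against 7202 to 2978 as deposited. Deviations from group means in same-numbered replicates had correlations of 0.09 (hairpin), -0.21 (siRNA), 0.06 to 0.26 (QC6352 in Rh30) and -0.19 to -0.06 (Rh41). Replicates of different numbers had -0.16 to 0.09 in Rh30 and -0.07 to 0.13 in Rh41. In groups of 2 arrays the different-number value is fixed as the same-number value with its sign turned. The main fit did not pair the arrays, and these values do not settle whether the Rh30 drug arrays are paired. With the replicate block 8 members fell in Rh41 and 1 difference was negative, beside 1389 and 1457 of all genes. Leaving out 1 array gave 8 to 12 members lower in Rh41, beside 1169 to 1306 of all genes, against 1556 with all arrays. It gave 1 to 3 negative differences, beside 1324 to 1589 of all genes, against 1672 with all arrays. With 1 hairpin or siRNA array left out a group keeps a lone array, so those counts are not compared here. The causes of these changes were not tested.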
